A study of Bos taurus with 16 samples.

Results

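The 9 genes described here were lower in cultured bovine luteal cells after prostaglandin F2 alpha (PGF2A), in the absence or in the presence of interferon tau (IFNT). They are *CHI3L1*, *TNN*, *CRISPLD2*, *SPOCK2*, *P4HA3*, *SLAIN1*, *FAM166B*, *FAM110B* and *FBXO10*, 9 of the 18705 genes listed, and all 9 passed the filter on low values that left 14122 genes tested. They were chosen by their falls with PGF2A in these same samples, so those falls are given as a description and not as a result. Each of the 9 passed in 1 of the 2 PGF2A comparisons of a limma fit with the sample number as a block, at a Benjamini-Hochberg adjusted p under 0.05. *CHI3L1*, *TNN* and *FAM110B* passed in PGF2A against control, where 7 of 14122 genes were called lower (0.0496%), and the other 6 passed in IFNT+PGF2A against IFNT, where 21 were called lower (0.149%). No member passed in both comparisons. The choice was stated only as falls with PGF2A. This fit was taken as its measure because each member is among its calls, but its threshold does not define the set. Only 3 of the 7 falls called in PGF2A against control, and 6 of the 21 in IFNT+PGF2A against IFNT, are members. The member nearest the threshold was *CHI3L1* in the first comparison (log2 difference -0.60, adjusted p = 0.031) and *FAM166B* in the second (-0.72, adjusted p = 0.041). Just outside it in the first comparison lay *WISP3* (-2.82, adjusted p = 0.055) and then *FBXO10* (-0.59, adjusted p = 0.057), and in the second *ZMYM3* (-0.26, adjusted p = 0.056). *CLDN11*, *GSTA2* and *SCG2*, which passed in both comparisons, are not in the set.

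The cells were primary mixed luteal steroidogenic cells from corpora lutea taken on cycle days 10 to 12. The corpus luteum is the ovarian gland that makes progesterone. After adhering overnight the cells were kept for 24 hours in medium with luteinizing hormone at 10 ng/mL, which all groups received. The groups of 4 samples each were IFNT at 1 ng/mL together with PGF2A at 10 ng/mL (IFNT+PGF2A), IFNT alone, PGF2A alone, and cells given neither (control). Triplicate wells were pooled for each RNA sample. The labels number the samples 1 to 4 in each group without saying whether a number is an animal or a culture, so the tests below speak only to how far these samples spread, which may be technical spread.

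PGF2A is the uterine prostaglandin that brings about regression of the corpus luteum through a Gq-coupled receptor on luteal cells, and IFNT is the conceptus signal that keeps the gland alive in early pregnancy by acting through the type I interferon receptor. The regressing gland stops making progesterone, loses vessels and rebuilds its extracellular matrix. Of the 9 genes, 4 encode secreted proteins of or near the matrix, 1 a collagen-modifying enzyme of the endoplasmic reticulum, 3 proteins tied to microtubules, centrosomes or cilia, and 1 a subunit of a ubiquitin ligase.

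Between 23786067 and 25906276 reads per sample were assigned to genes, and levels are given as normalized read counts, that is reads divided by the authors' size factor for the sample. They are not per length, so they compare samples and not genes. Samples of the same number deviated together in every pair of groups, and differences are therefore given within same-number pairs, numbers 1 to 4 in that order. *STAR*, *CYP11A1* and *HSD3B1*, which define steroidogenic cells, and all 5 other genes of that marker list passed the filter. So did all 10 fibroblast, all 10 pericyte and smooth muscle and all 10 endothelial markers looked for, so genes that mark several cell types were measured together. The label calls the cells mixed luteal steroidogenic cells, and which cells made these RNAs was not tested.

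**Figure D1:**
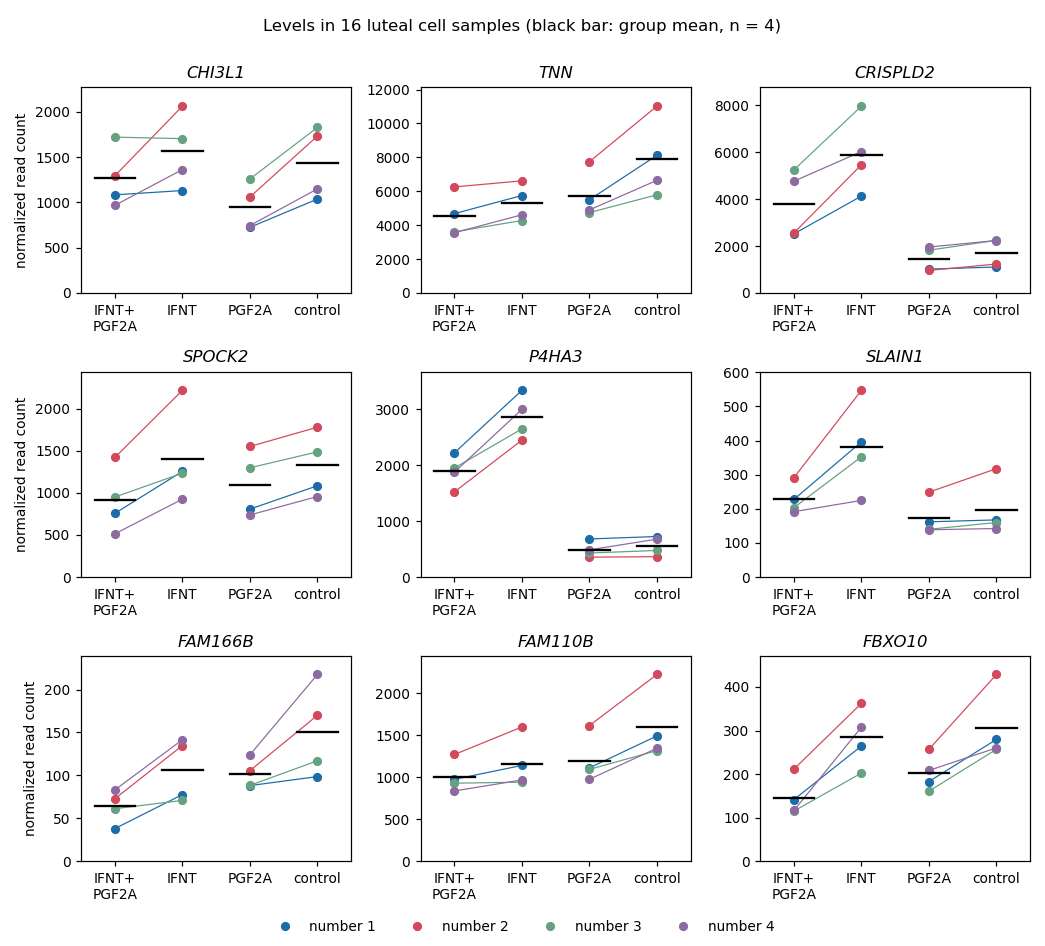
Normalized read counts (linear axis from 0) of the 9 genes in the 16 samples, with one point per sample, coloured by sample number, lines joining same-number samples with and without PGF2A, and a black bar at the group mean (n = 4). All lines go down from right to left except that of *CHI3L1* number 3 with IFNT, while *P4HA3* and *CRISPLD2* stand higher in all 8 samples with IFNT than in all 8 without it.

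CHI3L1 is a secreted chitin-binding glycoprotein that has lost the enzyme activity of the chitinases. *CHI3L1* had 725, 1060.3, 1259 and 745 normalized counts in PGF2A cells, against 1037, 1733, 1829 and 1149.8 in control cells. In IFNT+PGF2A cells it had 1084, 1295, 1722 and 968, against 1132, 2064, 1705 and 1363 in IFNT cells. Without IFNT it was lower with PGF2A in 4 of 4 pairs and by similar amounts (log2 difference -0.60 ± 0.09, SD over pairs), and with IFNT it was lower in 3 of 4, number 3 being level (-0.30 ± 0.33). The ranges of the groups overlapped in both comparisons, and numbers 2 and 3 were higher than numbers 1 and 4 in every group.

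TNN is tenascin N, also called tenascin W, a large matrix glycoprotein found around remodelling connective tissue. *TNN* had 5499, 7741, 4741 and 4898 normalized counts in PGF2A cells and 8120.3, 11021, 5789 and 6645 in control cells. It had 4681, 6256, 3604 and 3553 in IFNT+PGF2A cells and 5749, 6615, 4275 and 4612 in IFNT cells. The difference was -0.45 ± 0.12 without IFNT and -0.25 ± 0.13 with it (log2, SD over 4 pairs), lower in 8 of 8 pairs. Number 2 was highest in all 4 groups.

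CRISPLD2 is a secreted protein with a cysteine-rich CAP domain and LCCL domains, known in human airway smooth muscle as a glucocorticoid-responsive gene. *CRISPLD2* had 2523, 2559, 5252 and 4768 normalized counts in IFNT+PGF2A cells, against 4133, 5470.0, 7971 and 6034 in IFNT cells. It had 1016, 961, 1825 and 1959 in PGF2A cells, against 1107, 1234, 2245 and 2238 in control cells. The difference with PGF2A was -0.69 ± 0.31 in the presence of IFNT, widest in number 2, and -0.24 ± 0.11 in its absence. Numbers 3 and 4 were above numbers 1 and 2 in every group.

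SPOCK2 is testican-2, a secreted proteoglycan that carries heparan and chondroitin sulfate chains. *SPOCK2* had 757, 1421, 950.4 and 514 normalized counts in IFNT+PGF2A cells, against 1255, 2217, 1234 and 925 in IFNT cells. It had 807, 1550.1, 1297 and 738 in PGF2A cells, against 1084, 1779, 1486 and 957 in control cells. It was lower with PGF2A in 8 of 8 pairs, with log2 differences of -0.65 ± 0.20 with IFNT and -0.30 ± 0.12 without. Number 2 was highest and number 4 lowest in each group, and all groups overlapped.

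P4HA3 is a catalytic subunit of prolyl 4-hydroxylase, the enzyme that hydroxylates prolines of new collagen chains so that the triple helix is stable. *P4HA3* had 2219, 1522, 1949 and 1875 normalized counts in IFNT+PGF2A cells, against 3335, 2445, 2646 and 2994 in IFNT cells. It had 681, 356, 430.1 and 487 in PGF2A cells, against 725, 364, 476 and 678 in control cells. With IFNT present the PGF2A values all lay below those without PGF2A, as for 0.503% of all tested genes, and the difference was alike in the 4 pairs (-0.60 ± 0.11). Without IFNT the difference was -0.19 ± 0.20, and number 4 alone was lower by more than 0.2 on the log2 scale.

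SLAIN1 binds the growing plus ends of microtubules, and the human protein promotes their persistent growth. *SLAIN1* had 228, 291, 204 and 192 normalized counts in IFNT+PGF2A cells, against 396, 547, 352 and 225 in IFNT cells. It had 162, 249, 140.1 and 139 in PGF2A cells, against 168, 318, 159.9 and 142 in control cells. The difference was -0.68 ± 0.31 with IFNT, where number 4 moved least, and -0.16 ± 0.15 without IFNT, where numbers 1 and 4 barely moved.

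FAM166B is a microtubule inner protein of motile cilia. *FAM166B* had 38.1, 72.8, 61.3 and 83.1 normalized counts in IFNT+PGF2A cells, against 77.7, 135, 70.9 and 142 in IFNT cells. It had 88.1, 106, 88.4 and 124 in PGF2A cells, against 98.7, 170.0, 117 and 218 in control cells. It was the member with the fewest reads, and its pair differences spread most widely, from -1.02 to -0.21 with IFNT and from -0.81 to -0.16 without.

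FAM110B belongs to a small family of proteins that the human members place at centrosomes. *FAM110B* had 1112, 1616, 1095 and 977 normalized counts in PGF2A cells, against 1492, 2225, 1318 and 1346 in control cells. It had 976, 1272, 929.6 and 837 in IFNT+PGF2A cells, against 1142, 1599, 943 and 968 in IFNT cells. The difference was -0.40 ± 0.09 without IFNT and -0.20 ± 0.13 with it, and in number 3 with IFNT it was close to 0.

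FBXO10 is an F-box protein, the part of an SCF ubiquitin ligase that picks the substrate, and in human lymphoma cells one of its substrates is the survival protein BCL2. *FBXO10* had 142, 211, 115 and 117 normalized counts in IFNT+PGF2A cells, against 265, 362, 202 and 308 in IFNT cells. It had 183, 257, 161 and 209 in PGF2A cells, against 279.7, 429, 257 and 260.3 in control cells. Its mean difference with IFNT, -0.97 ± 0.29, was the widest of any member in either comparison, and number 4 had the widest difference of the pairs. Without IFNT the difference was -0.59 ± 0.18, and all 4 PGF2A values lay below the 4 control values, as for 0.559% of all tested genes. The margin was narrow: the highest PGF2A value and the lowest control value both round to 257.

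**Figure D2:**
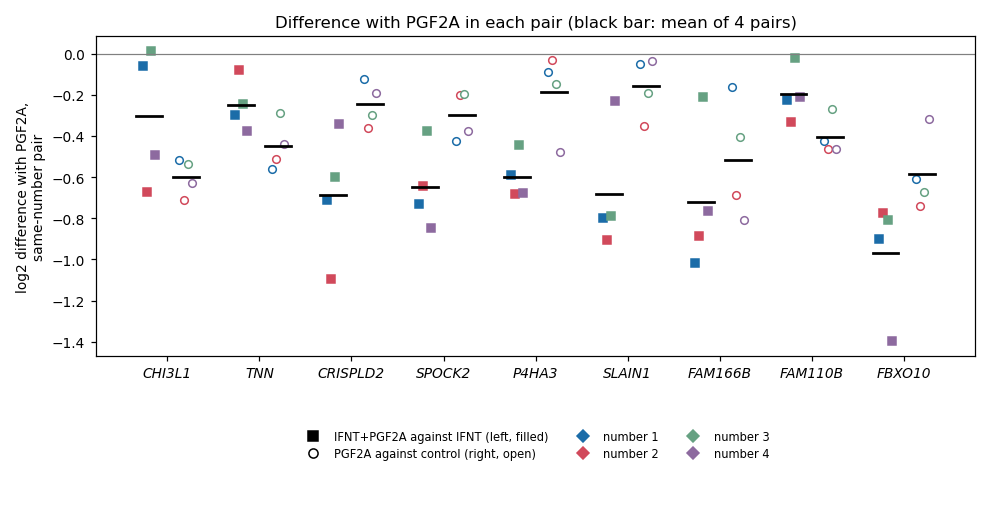
Log2 difference with PGF2A in each same-number pair, for IFNT+PGF2A against IFNT (filled squares, left) and PGF2A against control (open circles, right), with a black bar at the mean of 4 pairs. Of 72 pairs, 71 lie below 0, from -1.40 in *FBXO10* number 4 to -0.02 in *FAM110B* number 3, and *CHI3L1* number 3 lies at 0.01.

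Apart from *P4HA3* with IFNT and *FBXO10* without it, the values with and without PGF2A overlapped in every member and IFNT state. Counted over the set, 36 of 36 pairs were lower in PGF2A against control and 35 of 36 in IFNT+PGF2A against IFNT. The median member difference was -0.40 in the first and -0.65 in the second, beside medians of -0.00396 and 0.00596 over all tested genes, and these counts and medians follow from the choice of members. The share of all genes lower in 4 of 4 pairs was 10.6% in the first comparison and 9.13% in the second, and 2.83% were lower in 8 of 8. Without the block none of the members passed limma in either comparison. In that fit 0 genes were called with PGF2A against control (0%; 155 at an unadjusted p under 0.05; 0 in edgeR and 2 in DESeq2) and 1 with IFNT+PGF2A against IFNT (0.00708%). The blocked calls depended on which numbers were kept. Leaving number 1 or number 2 out of every group left 0 members past the test in both comparisons, and 0 of all tested genes. Leaving out number 3 left 0 members and *FBXO10* alone, beside 4 and 10 genes called in all. Leaving out number 4 left 4 and 6 members, beside 96 and 334 genes. The member counts thus moved with those of all genes and are not read as a trait of the set. In bulk samples such as these, fewer cells of a type and less RNA per cell cannot be told apart.

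The authors' deposited table for the main effect of PGF2A had 26 genes with an adjusted p under 0.05, and *FBXO10* was the 1 member among them (adjusted p = 0.030). In the authors' deposited tables of the paired groups, *FBXO10* had a log2 fold change of -0.96 for IFNT+PGF2A against IFNT (SE 0.27, adjusted p = 0.33) and -0.60 for PGF2A against control (SE 0.22, adjusted p = 1.00). The next lowest adjusted p of a member for PGF2A in the authors' deposited tables was that of *P4HA3* in IFNT+PGF2A against IFNT (0.46).

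**Figure D3:**
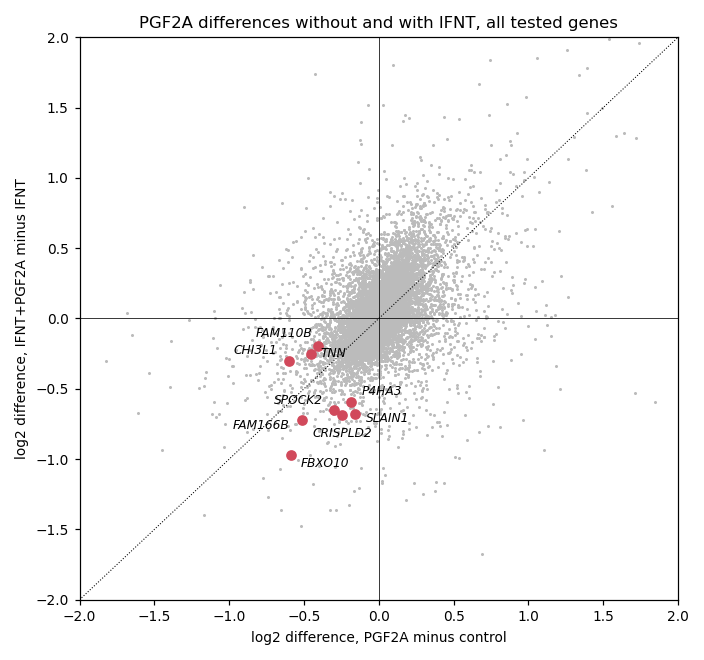
Log2 difference of each tested gene (grey points; 7 of 14122 lie outside the axes) for PGF2A minus control on the horizontal axis and IFNT+PGF2A minus IFNT on the vertical axis, with the 9 genes in red and a dotted line of equal differences. All 9 lie below 0 on both axes. The 6 that passed the blocked fit in the presence of IFNT lie below the dotted line and the 3 that passed in its absence above it.

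The members divided by IFNT state in the way their choice fixes. In *CRISPLD2*, *SPOCK2*, *P4HA3*, *SLAIN1*, *FAM166B* and *FBXO10* the PGF2A difference was further below 0 with IFNT than without, by -0.20 in *FAM166B* (95% interval -1.11 to 0.71, and -0.65 to 0.24 with the block) to -0.52 in *SLAIN1* (-1.39 to 0.34, and -0.90 to -0.15 with the block). In *CHI3L1*, *TNN* and *FAM110B* it was closer to 0 with IFNT, by 0.20 to 0.29. The interaction test of limma over all 14122 genes called 0 of 9 members and 0 genes in all (0%; 40 at an unadjusted p under 0.05), as did edgeR, DESeq2 and limma with the block (219 at an unadjusted p under 0.05). The unadjusted 95% interval excluded 0 in 0 of 9 members without the block and in 7 of 9 with it, all but *CHI3L1* and *FAM166B*. The interaction is the difference of the comparisons that chose the members, so for these genes the intervals and the test are a description, and nothing is read from them about whether PGF2A acts differently with IFNT.

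The effect of IFNT, averaged over cells with and without PGF2A, is orthogonal to both comparisons that chose the members and was tested. Its estimate is not fixed by the choice of members. All 9 did, however, pass the blocked fit in a PGF2A comparison, and such a pass favours genes that vary little within pairs. The error of that fit is shared with the blocked IFNT test. Counts of members called with the block may therefore be raised by the choice and are not read against the share of all genes. IFNT moved members in both directions, as it did the tested genes at large, and this is not read as a trait of the set. *P4HA3*, *CRISPLD2* and *SLAIN1* rose, *TNN* and *FAM166B* fell, and the other 4 did not pass: 5 of 9 members were called, beside 38.5% of all tested genes, 3 of them higher (19.4% of all genes) and 2 lower (19.1%). With the replicate block 8 of 9 passed, beside 57.1% of all genes, 4 of them higher (27.4%) and 4 lower (29.7%), and *SPOCK2* did not. In the authors' deposited table for the main effect of IFNT, *P4HA3*, *CRISPLD2* and *SLAIN1* had adjusted p of 1.3e-34, 2.6e-09 and 0.012, while *TNN* stood at 0.073 and *FAM166B* at 0.079. The median member difference was -0.12, against -0.02 over all tested genes.

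*P4HA3* averaged 1891 ± 287 normalized counts in IFNT+PGF2A cells, 2855 ± 392 in IFNT cells, 489 ± 139 in PGF2A cells and 561 ± 169.9 in control cells (SD, n = 4 each). The IFNT effect was 2.19 on the log2 scale (SE 0.16, limma adjusted p = 2.2e-08), 4.55-fold, higher in 8 of 8 pairs. No value with IFNT overlapped a value without it; IFNT lay wholly above control in 12.1% of all tested genes and IFNT+PGF2A wholly above PGF2A in 15.7%. The 4 group means ran from IFNT through IFNT+PGF2A and control to PGF2A, and control and PGF2A overlapped.

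*CRISPLD2* averaged 3776 ± 1439.6 normalized counts in IFNT+PGF2A cells, 5902 ± 1593 in IFNT cells, 1440.3 ± 525 in PGF2A cells and 1706 ± 620.3 in control cells. Its IFNT effect was 1.60 (SE 0.23, limma adjusted p = 5.6e-05), higher in 8 of 8 pairs, and the values with and without IFNT did not overlap. The order of the groups was the same as for *P4HA3*, again with PGF2A and control overlapping, and here IFNT+PGF2A also overlapped IFNT. *SLAIN1* averaged 229 ± 44.5, 380.1 ± 133, 172 ± 52.1 and 197 ± 81.2 in the 4 groups in that order, with an IFNT effect of 0.69 (SE 0.20, limma adjusted p = 0.014; higher in 8 of 8 pairs). IFNT overlapped each of the other groups, though 3 of the 4 IFNT samples lay above every sample of those groups.

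*TNN* averaged 4523 ± 1267 normalized counts in IFNT+PGF2A cells, 5313 ± 1073 in IFNT cells, 5719.8 ± 1386 in PGF2A cells and 7894 ± 2297 in control cells. The IFNT effect was -0.45 (SE 0.16, limma adjusted p = 0.038; lower in 8 of 8 pairs). *FAM166B* averaged 63.8 ± 19.3, 106 ± 37.1, 102 ± 17.0 and 151 ± 53.8 in the same order, with -0.61 (SE 0.21, limma adjusted p = 0.035; lower in 8 of 8 pairs). Both genes were highest in control and lowest in IFNT+PGF2A cells, with IFNT and PGF2A between them and overlapping each other. All 4 IFNT+PGF2A values of *FAM166B* lay below the 4 PGF2A values, as in 14.2% of all tested genes. Each call was lost in limma in 8 of the 16 fits that left out 1 sample, with adjusted p up to 0.080 for *TNN* and 0.074 for *FAM166B*, and with the block they stood at 2.0e-06 and 2.1e-04.

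*FAM110B* averaged 1004 ± 188 normalized counts in IFNT+PGF2A cells, 1163 ± 304 in IFNT cells, 1199.9 ± 284 in PGF2A cells and 1595 ± 427 in control cells. Its IFNT difference was -0.35 (95% interval -0.67 to -0.04, limma adjusted p = 0.074), lower in 8 of 8 pairs, and it passed with the block (1.8e-05) and on leaving out number 2 of IFNT (0.025) or of IFNT+PGF2A (0.044). *FBXO10* averaged 146 ± 45.1, 284 ± 67.7, 202 ± 41.2 and 306 ± 82.1, with -0.30 (-0.65 to 0.06, limma adjusted p = 0.17, 0.0046 with the block; lower in 7 of 8 pairs). *CHI3L1* averaged 1267 ± 332, 1566 ± 407, 947 ± 259 and 1437 ± 402, and was the 1 member not called without the block whose IFNT difference was above 0, at 0.28 (-0.10 to 0.65, limma adjusted p = 0.23, 0.004 with the block; higher in 7 of 8 pairs). *SPOCK2* averaged 910.5 ± 384, 1408 ± 560.0, 1098 ± 391 and 1327 ± 377, with -0.12 (-0.62 to 0.38, limma adjusted p = 0.72, 0.19 with the block; lower in 6 of 8 pairs).

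**Figure D4:**
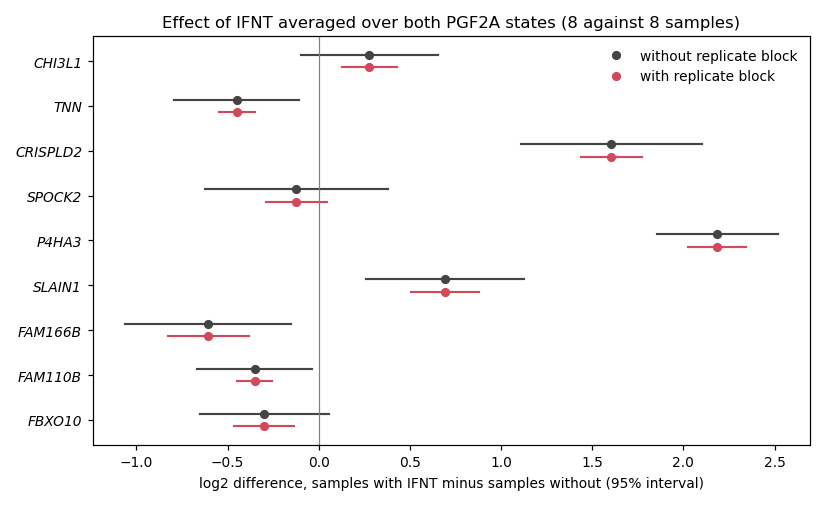
Log2 difference between the 8 samples with IFNT and the 8 without (points) with 95% intervals from limma, without (grey) and with (red) the sample number as a block. The intervals of *P4HA3*, *CRISPLD2* and *SLAIN1* lie above 0 in both fits, and that of *SPOCK2* includes 0 in both. Those of *TNN*, *FAM166B* and *FAM110B* lie below 0 in both, though *FAM110B* did not pass after adjustment without the block.

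Taken one PGF2A state at a time, the IFNT differences share samples with the comparisons that chose the genes. *P4HA3* differed by 1.98 in IFNT+PGF2A against PGF2A (SE 0.22, limma adjusted p = 7.8e-06) and by 2.39 in IFNT against control (SE 0.22, limma adjusted p = 9.5e-07). For *CRISPLD2* the values were 1.38 (adjusted p = 0.0069) and 1.83 (adjusted p = 7.5e-04). *SLAIN1* passed in IFNT against control (0.95, adjusted p = 0.025, up to 0.083 on leaving out 1 sample) and stood at 0.43 in IFNT+PGF2A against PGF2A (adjusted p = 0.34, 0.012 with the block). Members called were therefore 2 of 9 in the first comparison, where 20.9% of all genes were called, and 3 of 9 in the second, where 24% were. All 5 of these calls were higher, as were 12.3% of all genes in the first and 13.1% in the second. With the block 9 of 9 passed in IFNT+PGF2A against PGF2A (40.3% of all genes), 4 higher (20.9%) and 5 lower (19.5%). In IFNT against control 6 of 9 passed with the block (43.5%), 3 higher (21.3%) and 3 lower (22.1%), *CHI3L1*, *SPOCK2* and *FBXO10* not passing there.

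Set against control cells, cells given both agents thus held the 9 genes at different places. *P4HA3* stood at 3.37 and *CRISPLD2* at 2.21 times its control mean with IFNT+PGF2A, against 5.09 and 3.46 times with IFNT alone. *SLAIN1* stood at 1.16 times control with both agents, against 1.93 times with IFNT alone. *FAM166B* and *FBXO10* were at 0.423 and 0.477 times control with both agents, *TNN* at 0.573, *FAM110B* at 0.629, *SPOCK2* at 0.686 and *CHI3L1* at 0.882.

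How much of each gene's variance went with treatment also differed. On the log2 scale over 16 samples, PGF2A took 2.89% of the variance in *P4HA3* to 54.8% in *FBXO10* (median 17.3%), IFNT 1.37% in *SPOCK2* to 89.8% in *P4HA3* (median 26.6%), and the sample number 5.40% in *P4HA3* to 69.6% in *SPOCK2* (median 39.4%). The sample number took the largest share in *CHI3L1*, *TNN*, *SPOCK2*, *SLAIN1*, *FAM166B* and *FAM110B*. Number 2 was the highest number in 5 of 9 members (*TNN*, *SPOCK2*, *SLAIN1*, *FAM110B* and *FBXO10*), number 3 in *CHI3L1* and *CRISPLD2*, number 1 in *P4HA3* and number 4 in *FAM166B*. What was left after treatment, interaction and number was 1.07% to 6.79%. The PGF2A share is a description, since it chose the genes.

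**Figure D5:**
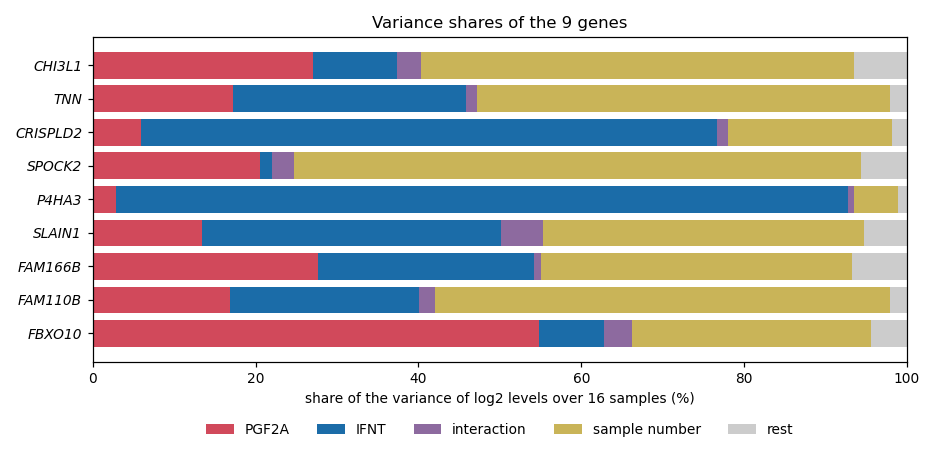
Share of the variance of log2 levels over the 16 samples (bars sum to 100%) that went with PGF2A, IFNT, their interaction, the sample number and the rest. *FBXO10* has the largest PGF2A share (54.8%), *P4HA3* the largest IFNT share (89.8%) and *SPOCK2* the largest share for the sample number (69.6%).

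Once the mean of each sample number was taken out, the members fell into patterns, described here by Pearson's r over the 16 samples, which share their 4 treatments and are not independent points. The PGF2A falls that chose the members are part of these patterns, so likeness among members, and to other genes that fell, is partly fixed by the choice. *CRISPLD2* and *P4HA3* were alike (r = 0.98), as were *CRISPLD2* and *SLAIN1* (0.92), *TNN* and *FAM110B* (0.96), *SPOCK2* and *FBXO10* (0.91) and *FAM166B* and *FAM110B* (0.90). *TNN* and *P4HA3* ran opposite (-0.66). Among all tested genes the one most like *CRISPLD2* was *FKBP5* (0.99), a co-chaperone of steroid receptors. That most like *P4HA3* was *ACSS1* (1.00), a mitochondrial acetyl-CoA synthetase, that most like *SLAIN1* was *NR1H4* (0.95), a bile acid receptor, that most like *FAM166B* was *GAS1* (0.94) and that most like *CHI3L1* was *CD247* (0.92). For *TNN*, *FAM110B*, *SPOCK2* and *FBXO10* the nearest gene was another member. The genes most like the mean of the 9 were *GSTA2* (0.92) and *GSTA4* (0.91), both glutathione transferases and both among the called falls with PGF2A, *ST5* (0.92), *ZPR1* (0.91) and *HEXIM1* (0.90).

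Relatives of the members were looked up in the same comparisons. Of 16 matrix proteoglycans, 26 other collagen-processing enzymes, 20 other microtubule plus-end proteins, 12 other ciliary microtubule inner proteins and 35 other F-box and SCF genes tested, limma with the block called 0 in PGF2A against control, beside 0.163% of all genes, a share at which lists of this size would be expected to hold about none. In IFNT+PGF2A against IFNT (0.701% of all genes) it called *TNXB*, another tenascin, lower (-0.39, SE 0.08, adjusted p = 0.036), the procollagen protease *ADAMTS14* higher (0.93, SE 0.16, adjusted p = 0.020) and the procollagen protease enhancer *PCOLCE2* higher (0.32, SE 0.06, adjusted p = 0.046). In that comparison 13 of 16 proteoglycans (median -0.17), 10 of 12 ciliary (-0.11) and 17 of 26 collagen-processing genes (-0.07) lay below 0, as did 5 of 20 plus-end (0.10) and 12 of 35 F-box and SCF genes (0.05), beside a median of 0.00596 over all tested genes. The other chitinase, testican and SPARC, CAP-domain and FAM110 relatives tested, 2, 4, 5 and 3 genes, had 0 calls in either comparison.

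With IFNT, 19.4% of all tested genes were called higher and 19.1% lower (27.4% and 29.7% with the block), and the counts of relatives are to be read beside those shares. Of the 26 other collagen-processing enzymes 2 rose and 6 fell in limma without the block (3 and 10 with it), median -0.10, among them the lysyl hydroxylase *PLOD2* (-0.86, adjusted p = 4.3e-05) and the prolyl 3-hydroxylase *P3H2* (-0.90, adjusted p = 0.00017), opposite in sign to *P4HA3*. Of 20 other plus-end proteins 3 rose and 5 fell (3 and 9 with the block), and 14 lay below 0. *CDK5RAP2* stood at 0.66 (adjusted p = 4.8e-06) and *MAPRE1*, which encodes the plus-end protein EB1, at 0.49 (adjusted p = 7.3e-06), the same sign as *SLAIN1*. *DST* stood at -0.40 (adjusted p = 0.0019), opposite in sign to *SLAIN1*. Of 12 other ciliary inner proteins 3 rose and 2 fell (5 and 2 with the block). Among the rises, *CFAP52* averaged 78.2 ± 29.6 normalized counts in IFNT+PGF2A cells, 71.8 ± 21.5 in IFNT cells, 0.743 ± 0.495 in PGF2A cells and 1.67 ± 1.97 in control cells (SD, n = 4 each). It passed the filter on low values only through samples with IFNT. *TEKT3*, another of the rises, averaged 14.7, 15.8, 5.37 and 6.73 in that order, under 10 without IFNT. The count of ciliary rises is therefore partly fixed by the filter. With *FAM166B*, 13 of the 20 listed ciliary genes in the data were tested. Of 35 other F-box and SCF genes 7 rose and 9 fell (7 and 13 with the block), *FBXO16* by 2.56 (adjusted p = 2.7e-07) and *FBXO33* by 1.52 (adjusted p = 2.4e-05). Of 16 proteoglycans 5 rose and 2 fell (8 and 4 with the block), *AGRN* by 2.25 (adjusted p = 2.5e-08), *FMOD* by 1.32 (adjusted p = 3.4e-10) and *LUM* by -0.60 (adjusted p = 7.9e-06). In the FAM110 family *FAM110D* rose (1.34, adjusted p = 0.0050), 1 of 3 other members tested, and among 5 other CAP-domain genes *GLIPR1* fell (-0.58, adjusted p = 0.0024). The chitinase, tenascin, and testican and SPARC relatives had 0 calls with IFNT without the block, and with it 0 rose and 1 fell, 1 rose and 0 fell, and 2 rose and 1 fell. The list medians of the plus-end, ciliary, F-box and proteoglycan genes were -0.13, 0.14, -0.13 and 0.21, beside -0.02 over all tested genes.

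Markers of cell types that the culture could hold were set beside these differences. In the PGF2A comparisons with the block, 0 of 10 fibroblast, 0 of 10 pericyte and smooth muscle, 0 of 10 endothelial, 0 of 8 steroidogenic, 0 of 7 tested macrophage and 0 of 3 tested T and NK cell markers passed, and of 9 large luteal markers *SCG2* did, lower in both. Values below 0 were nevertheless the rule in some lists: in PGF2A against control all 10 endothelial markers (median -0.17) and all 8 steroidogenic markers (median -0.28) lay below 0, as did 8 of 10 (median -0.06) and 7 of 8 (median -0.12) in IFNT+PGF2A against IFNT. Of macrophage markers 6 of 7 (median -0.30) lay below 0 in PGF2A against control and 7 of 7 (median -0.10) in IFNT+PGF2A against IFNT. The counts in the same order were 7 and 8 of 10 for pericyte and smooth muscle markers, 2 and 3 of 3 for T and NK cell markers, 7 and 6 of 9 for large luteal markers, and 5 and 6 of 10 for fibroblast markers. The summed fibroblast markers ran from 558322 to 1154080 normalized counts in IFNT+PGF2A cells, against 670055 to 1256740 in IFNT cells, and from 769148 to 1273910 in PGF2A cells, against 860767 to 1389530 in control cells. With IFNT, 6 of 10 endothelial markers rose and 0 fell (10 and 0 with the block; median 0.78), their sum running from 12647 to 27838 in IFNT+PGF2A and 11689.8 to 33754 in IFNT cells, against 9557 to 22129 in PGF2A and 9806 to 24422 in control cells. Steroidogenic markers fell in 4 of 8 cases and rose in 1 (6 and 1 with the block), fibroblast markers fell in 2 of 10 and rose in 2 (4 and 5 with the block), and the shares of all genes were 19.4% higher and 19.1% lower. Of 10 macrophage markers 7 were tested, and 3 rose. Among these, *C1QB* averaged 22.5 ± 20.8 normalized counts in IFNT+PGF2A cells, 25.3 ± 14.6 in IFNT cells, 2.21 ± 0.928 in PGF2A cells and 4.07 ± 3.66 in control cells. *C1QA* averaged 12.7, 12.1, 2.71 and 4.38 in that order. These 2 genes passed the filter on low values only through samples with IFNT, so their rises and the count of 3 are partly fixed by the filter. T and NK cell markers rose in 2 of 3 tested cases, *IL2RB* by 1.28 (SE 0.21, limma adjusted p = 0.00015) and *CD3E* by 0.79 (SE 0.24, limma adjusted p = 0.019). Pericyte and smooth muscle markers rose in 2 of 10 cases and large luteal markers in 2 of 9, *PTHLH* by 2.87 (SE 0.23, limma adjusted p = 9.8e-08). None of those 4 lists had a marker called lower without the block. With the block, 4 macrophage markers rose and 1 fell, and 2 T and NK cell markers rose and 0 fell. In that fit 5 pericyte and smooth muscle markers rose and 2 fell, and 3 large luteal markers rose and 1 fell. The shares of all genes with the block were 27.4% higher and 29.7% lower. None of the endothelial, steroidogenic and fibroblast markers was under 10 normalized counts in all samples, whereas the macrophage marker *TYROBP* and the T and NK cell marker *NKG7* were. The part of cell composition in the differences of the 9 genes was not tested.

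For 3 members the annotation may limit what a count can say, because their gene spans overlap those of other genes. Strand use in counting is not given in the sources used here. In RefSeq's gene table of assembly ARS-UCD2.0, *P4HA3* overlaps *PPME1*, which moved by -0.21 with IFNT (SE 0.05, limma adjusted p = 0.0040) and by -0.02 in IFNT+PGF2A against IFNT, far from the values of *P4HA3*. *FAM166B* overlaps *RUSC2* and *TESK1*, whose mean counts over the 16 samples were 2125 and 3613. *RUSC2* fell with IFNT (-0.56, SE 0.08, limma adjusted p = 7.2e-05), near the value of *FAM166B*, but stood at 0.14 in IFNT+PGF2A against IFNT and 0.12 in PGF2A against control. *TESK1* stood at 0.25, -0.21 and -0.19 in the same 3 comparisons. *CRISPLD2* overlaps the long noncoding RNA *LOC112442263*, which was not analysed here. The overlap is of whole gene spans, and shared exons were not looked at. Where exons are shared, reads of these neighbours may not be told apart from those of the members.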

How the data were processed

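RNA of 16 samples, 4 in each of 4 groups, was sequenced as 100 bp pairs on the DNBSEQ platform, per the labels. RSEM 1.2.8, Bowtie2 2.2.5, HISAT2 2.0.4 and DESeq2 were used, per the submitters' processing notes, with no order or settings stated. Not given in the sources used here: genome build, annotation and strand use. The deposited values are a signal per gene, each sample's read counts over its size factor (0.963 to 1.071), and 100% of values came out as whole reads to within 0.001. The authors' 7 tables also give log2 fold changes, p-values and adjusted p-values, and a test statistic, a score that was not used. Gene IDs were matched to RefSeq (ARS-UCD2.0) for names, 17768 with a match and 937 without. No column belonged to an unlabelled sample.

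The 14122 genes that reached 10 normalized counts in 4 or more samples were tested with limma 3.58.1 (R 4.3.3, intensity trend) on log2(normalized count + 0.5), all 16 samples sharing 1 estimate of the spread, without a block; fold changes on this scale understate the change of low genes. P-values were adjusted over all tested genes by the Benjamini-Hochberg method, threshold 0.05. On whole reads recovered from the values, edgeR 4.0.16 (quasi-likelihood) and DESeq2 1.42.0 were alternatives. The test was also run on simulated counts. The simulated differences were wider than the mean PGF2A difference of any member, and no interaction was simulated. That run therefore does not speak to differences as small as these. The reads per sample, 23786067 to 25906276, set the precision; RSEM's sharing of reads between near-identical copies could affect family members.

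Pairing was checked over 14122 genes: deviations from the group mean correlated at 0.352 to 0.719 in all 24 same-number pairs of samples, and at most 0.0402 in the 72 other pairs between groups. Same-number samples were therefore treated as pairs, a decision taken on the data since the labels are silent, and the blocked value is given where it changes a call.

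The members, gene lists, tests and alternatives were chosen with earlier results of these data known. The genes named were the 9 members, up to 3 called genes of each list of relatives by smallest adjusted p, the genes nearest the selection threshold, and those most like the members in pattern. The genes that overlap members, and the falls that passed in both PGF2A comparisons, were named after their values were seen. Of the named relatives and markers only those that bear on a member are given.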

Additional observations from a re-analysis of the deposited data

Results flagged for a closer look

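In control cells 1 sample stood apart from the other 3 in 2 members, out of 36 groups of 4 looked at; chance flags about 1 group in 20. *SLAIN1* had 317.5 normalized counts in number 2 of control, against 142 to 168 in the other 3. *FBXO10* had 428.7 in number 2 of control, against 257 to 279.7 in the others. Number 2 was also the highest number of *SLAIN1* and *FBXO10* in the other 3 groups. Without number 2 of control, the unblocked log2 difference of *SLAIN1* in PGF2A against control was 0.10 in place of -0.16. That fit kept number 2 of PGF2A, the highest PGF2A value at 249, and so broke the pair. Within pairs the differences were -0.05, -0.35, -0.19 and -0.04, numbers 1 to 4, all below 0.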

How the results depend on the processing

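With the replicate block, members called were 8 for the IFNT main effect, 6 for IFNT against control, 9 for IFNT+PGF2A against PGF2A, 3 for PGF2A against control and 6 for IFNT+PGF2A against IFNT, against 5, 3, 2, 0 and 0 without it. All genes called were then 6140, 5696, 23 and 99 in the last 4 of these comparisons, against 3384, 2948, 0 and 1. edgeR with the replicate block, an alternative chosen after seeing the data, gave 8, 6, 9, 4 and 6 members, and 6126, 5740, 28 and 91 genes. Fitting only the groups compared gave 2118 genes for IFNT against control. DESeq2 gave 2 genes for PGF2A against control and 9 for IFNT+PGF2A against IFNT, no filter gave 2 genes for PGF2A against control, and leaving number 4 out of every group gave 0 for IFNT+PGF2A against IFNT. The causes were not tested.

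Leaving out 1 sample gave 3 to 6 members and 4823 to 6431 genes for the IFNT main effect, 2 to 3 and 2746 to 4273 for IFNT against control, 2 and 2129 to 4094 for IFNT+PGF2A against PGF2A, 0 and 0 to 1 for PGF2A against control, 0 and 1 to 2 for IFNT+PGF2A against IFNT, and 0 for the interaction. With the block and 1 number left out, the ranges were 8 and 6301 to 9422, 5 to 7 and 4282 to 7925, 7 to 8 and 3784 to 7587, 0 to 4 and 0 to 96, 0 to 6 and 0 to 334 (10 without number 3), and 0, in the same order.

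The IFNT effects of *P4HA3*, *CRISPLD2*, *SLAIN1* and *FAM166B* passed in all 8 other settings and that of *TNN* in 7; leaving number 4 out of every group gave *TNN* an adjusted p of 0.095. Small differences changed sign when a sample was left out, all with adjusted p of 0.74 or more. In IFNT against control these were *CHI3L1* (-0.012 without control number 1 and -0.014 without IFNT number 2; up to 0.27), *SPOCK2* (-0.030 and -0.090 without control numbers 1 and 4, -0.19 without IFNT number 2, -0.035 with the block and without number 2; up to 0.23) and *FBXO10* (0.067 without control number 2, 0.046 without IFNT number 3; down to -0.23). In PGF2A against control it was *SLAIN1* (0.098 without control number 2 but with PGF2A number 2 kept, and down to -0.35). In the interaction it was *FAM166B* (0.023 without IFNT+PGF2A number 1, 0.014 with the block and without number 1, and down to -0.40).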
